A study of Mus musculus with 6 samples.

Results

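The genes described here are 8 regulators of the anterior primitive streak and of the organizer: the transcription factor genes Mixl1, Gsc, Lhx1, Hhex and Foxa2, the BMP antagonist genes Chrd and Nog, and the signal gene Shh. They were chosen by name, and each matched 1 row of the 36699 rows in the authors' deposited table, with 0 rows that join several genes. The authors tested 7 of the 8, and Shh was marked as not tested. Polyadenylated RNA was sequenced from embryoid bodies, the floating aggregates in which embryonic stem cells start to differentiate, on day 3 of culture. The cells were A2Lox.cre mouse embryonic stem cells with a doxycycline-inducible Flag-tagged Lef1 transgene, grown on mouse embryonic fibroblasts that were stripped away before aggregation. In the plus_Dox group (3 libraries, numbered 1, 2 and 3) doxycycline was present for the last 24 h. In the minus_Dox group (3 libraries, numbered 1, 3 and 4) it was withheld, and both groups carried the transgene. The comparison asks which genes respond to Lef1, one of the Tcf/Lef factors through which beta-catenin reaches DNA when Wnt signals are active. No group of cells without the transgene given doxycycline is used here, so responses to the drug and to Lef1 cannot be told apart.

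The primitive streak is the site in the embryo where epiblast cells become mesoderm and endoderm. Its anterior end gives the organizer (the node of the mouse), which forms the prechordal plate, the notochord and definitive endoderm, and patterns the neighbouring tissue by secreting inhibitors of BMP signals. Wnt and Nodal signals start the streak, and high Nodal activity favours its anterior fates. Lhx1, Hhex and Foxa2 are also active in the anterior visceral endoderm, an extraembryonic layer that patterns the epiblast before the node forms.

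Each gene has a single FPKM value (fragments per kilobase of transcript, scaled to the fragment total) per group, computed by the authors over the 3 libraries, so no values of single libraries and no standard deviations can be given. A gene was called when its q-value in the authors' deposited table was at most 0.05. The standard error (SE) is the size of the log2 fold divided by that of the authors' statistic, and 95% intervals assume normal errors. Separate cultures are not mentioned in the labels, so the p-values rest on these libraries only, whose spread may be technical, and depth is unknown. Lef1 rose, with transgene and native transcripts not told apart in its row: it stood at 51.0 FPKM in plus_Dox against 7.56 FPKM in minus_Dox in the authors' deposited table, 6.75-fold (95% interval 5.21 to 8.74, q listed as 0). Pluripotency genes, the markers of the labelled stem cells, were present in both groups. In the authors' deposited table Pou5f1 had 1510.2 FPKM in plus_Dox and 820.2 FPKM in minus_Dox (q = 0.055), Nanog rose (109.7 against 28.6 FPKM) and Sox2 fell (30.9 against 56.2 FPKM).

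Of the 7 genes tested, 3 rose (Gsc, Mixl1 and Nog), 0 fell and 4 did not pass (Lhx1, Hhex, Foxa2 and Chrd). Over all 18114 tested rows 12.2% were called, 8.98% as higher and 3.22% as lower in plus_Dox. The 7 genes had a median log2 fold of 0.47, against 0.20 over the 17830 tested rows with a finite fold, and 6 of the 7 were on the higher side. Foxa2 (5.95 FPKM), Gsc (5.64), Hhex (5.25) and Lhx1 (3.47) led in plus_Dox by the authors' deposited table, followed by Chrd (1.43), Mixl1 (0.886) and Nog (0.290). In minus_Dox the order in the authors' deposited table was Foxa2 (4.75 FPKM), Hhex (4.34), Lhx1 (4.16), Gsc (1.47), Chrd (1.04), Mixl1 (0.307) and Nog (0.130). Gsc thus stood beside Foxa2 and Hhex in plus_Dox and beside Chrd in minus_Dox. Without a spread per group, neighbours in these orders cannot be separated.

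**Figure D1:**
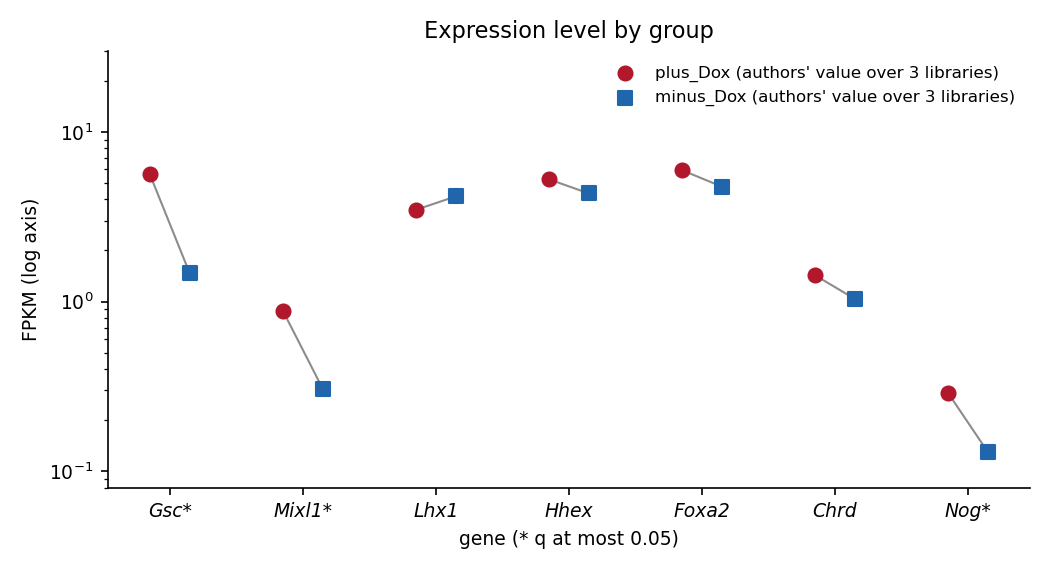
FPKM of the 7 tested genes (log axis), with plus_Dox as circles and minus_Dox as squares, each the authors' single value over 3 libraries, and grey lines joining the groups of a gene. Gsc shows the steepest line, between 5.64 FPKM in plus_Dox and 1.47 FPKM in minus_Dox, while Hhex, Foxa2 and Lhx1 stay between 3.47 and 5.95 FPKM in both groups.

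Gsc encodes goosecoid, a paired-type homeodomain repressor of the organizer and prechordal plate. It had 5.64 FPKM in plus_Dox against 1.47 FPKM in minus_Dox in the authors' deposited table, a 3.83-fold rise (95% interval 2.77 to 5.29; log2 fold 1.94, SE 0.24, q = 2.37e-13). By signed log2 fold it ranked 246 among the 17830 tested rows with a finite fold. Its row (mm9, per the submitters' processing notes) covers chromosome 12, bases 105709418 to 105711537, and spans 2119 bases, close to the 2028 bases of the RefSeq gene. Among the 3992 tested rows whose higher value lay within 2-fold of that of Gsc, 6.91% were called as higher and 5.94% as lower.

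The promoter of Gsc is shown because it belongs to the member with the largest rise as deposited. That of Foxa2 is shown because it belongs to a gene that did not pass and had a similar level in plus_Dox, though not in minus_Dox. RefSeq promoter windows (300 bases, 250 before to 50 after an annotated start, GRCm38.p6) were found for 5 of the 8 genes, Gsc, Lhx1, Hhex, Chrd and Foxa2, the last with 3 windows. Only the bases before the start are printed, 5′ to 3′ on the gene's strand. For Gsc these lie on the minus strand at chr12:104473237-104473486, and for the most downstream of the 3 Foxa2 starts on the minus strand at chr2:148045465-148045714. The other Foxa2 windows hold none of the letters searched here. Capitals mark the letters TATAAA or their reverse complement, a search added after the sequences were read.
Gsc: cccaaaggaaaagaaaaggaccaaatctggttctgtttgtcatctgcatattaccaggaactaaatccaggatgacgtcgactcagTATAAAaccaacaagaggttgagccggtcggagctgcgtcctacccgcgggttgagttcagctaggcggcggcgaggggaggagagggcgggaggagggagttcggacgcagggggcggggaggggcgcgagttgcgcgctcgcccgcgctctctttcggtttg
Foxa2: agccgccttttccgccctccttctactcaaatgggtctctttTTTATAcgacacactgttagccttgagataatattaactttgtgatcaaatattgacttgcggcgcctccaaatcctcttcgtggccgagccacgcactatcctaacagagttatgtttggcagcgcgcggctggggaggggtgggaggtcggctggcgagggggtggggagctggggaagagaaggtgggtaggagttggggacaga

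The Gsc window holds TATAAA at -164 to -159 from the annotated start, and the printed Foxa2 window holds it on the opposite strand at -208 to -203. These letters thus occur in 2 of the 7 windows of these genes, and on either strand in 13.6% of the 32851 RefSeq windows. The letters recognised by Tcf/Lef factors were searched as CTTTGAA or CTTTGTA and, with another last base, as CTTTGAT or CTTTGTT, on both strands. They occur in 16.9% of all windows and in 1 of the 7 windows of these genes. That match lies in the same Foxa2 window on the opposite strand, 15 to 21 bases after the start, and is shown in capitals with its flanks at chr2:148045433-148045461 (GRCm38.p6, minus strand).
Foxa2 match: acaggcaaagaATCAAAGaccagtggaca
Of the other letters searched on both strands, AATCCAC for Foxh1 occurs in 2.49% of all windows, TAATCC for Otx and Gsc in 7.06% and TCACACC for T-box factors in 3.98%. These 3 occur in 0 of the 7 windows. The Tcf/Lef letters were thus found beside a gene that did not pass, which says nothing of the factors or of more distant sites.

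Mixl1, a paired-type homeodomain factor gene of the streak related to the Mix genes of Xenopus, rose at a low level. The authors' deposited table lists 0.886 FPKM in plus_Dox against 0.307 FPKM in minus_Dox, a 2.89-fold rise (95% interval 1.92 to 4.34; log2 fold 1.53, SE 0.30, q = 2.65e-05). Both values lie under 1 FPKM, in the lower part of the tested rows (percentile 31.9 in plus_Dox and 21.4 in minus_Dox). Among 2994 tested rows of similar level, 4.54% were called as higher, and their median SE was 0.42, above that of Mixl1. The rise of Gsc exceeded that of Mixl1 by 0.41 in log2 units, with a 95% interval of -0.34 to 1.16, so the folds were not distinguishable.

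**Figure D2:**
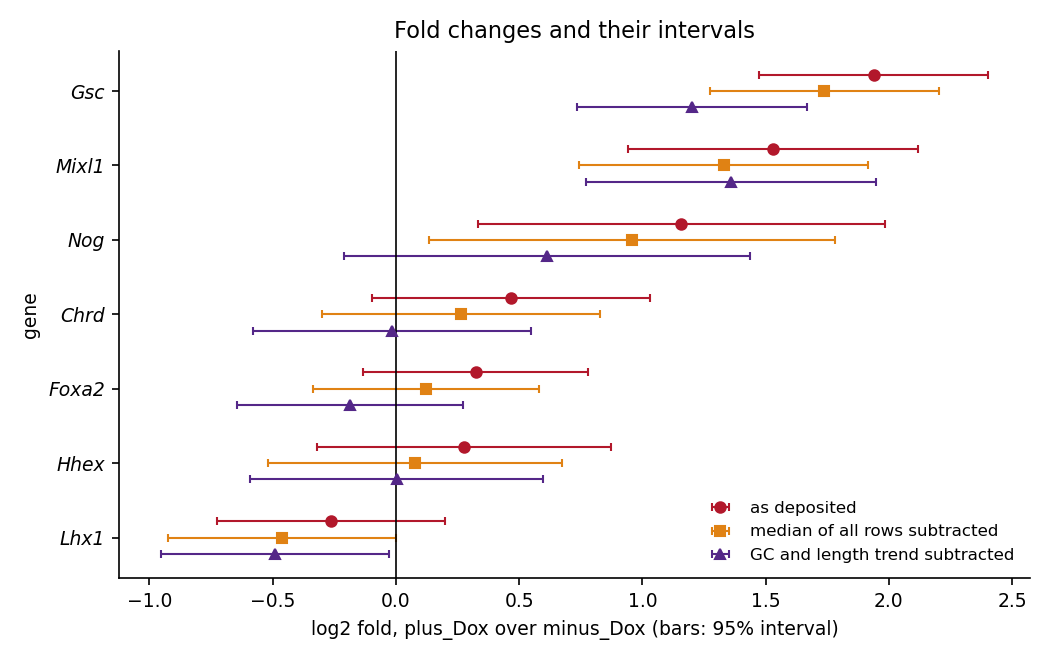
Log2 fold of plus_Dox over minus_Dox for the 7 tested genes, with bars for the 95% interval: as deposited (circles), after subtraction of the median of all rows (squares) and after removal of a trend on GC content and transcript length (triangles). The intervals of Gsc and Mixl1 lie above 0 on every scale, and that of Nog crosses 0 after the trend removal.

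The other 3 transcription factor genes did not pass. Lhx1, a LIM-homeodomain factor required for head formation, had 3.47 FPKM in plus_Dox against 4.16 FPKM in minus_Dox in the authors' deposited table (SE 0.24 on a log2 fold of -0.26, q = 0.59). It was the only tested member on the lower side, and its 95% interval spans folds of 0.605 to 1.15. Its row has the same interval (chromosome 11, 84331478 to 84349333, mm9) as that of 1500016L03Rik, and the labels do not say that strand was kept, so reads where the genes overlap cannot be told apart. The authors' deposited table gives 1500016L03Rik 1.73 FPKM in plus_Dox and 1.19 FPKM in minus_Dox (q = 0.88).

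Hhex, a homeodomain repressor gene of anterior endoderm, had 5.25 FPKM in plus_Dox against 4.34 FPKM in minus_Dox in the authors' deposited table (SE 0.30 on a log2 fold of 0.28, q = 0.70). Its 95% interval reaches from a fold of 0.802 to 1.83. Foxa2, a forkhead factor gene needed for the node and notochord, had 5.95 FPKM in plus_Dox against 4.75 FPKM in minus_Dox in the authors' deposited table (SE 0.23 on a log2 fold of 0.32, q = 0.46; fold 0.911 to 1.72). A call would have needed a fold of about 1.56 for Foxa2, 1.57 for Lhx1 and 1.78 for Hhex at their SE, given the largest p-value called over all rows (0.0061). The intervals of all 3 exclude the 3.83-fold seen for Gsc.

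The differences in fold between these genes were themselves large against their SE. The log2 fold of Gsc was higher than that of Lhx1 by 2.20 (95% interval 1.55 to 2.86), than that of Hhex by 1.66 (0.91 to 2.42) and than that of Foxa2 by 1.61 (0.96 to 2.27). The log2 fold of Mixl1 was higher than those of Lhx1 by 1.79 (1.05 to 2.54), of Hhex by 1.25 (0.42 to 2.09) and of Foxa2 by 1.21 (0.46 to 1.95). These intervals treat the SEs of 2 genes as independent, although the genes were measured in the same libraries. In FPKM, the ratio of Gsc to Foxa2 was 0.949 in plus_Dox against 0.310 in minus_Dox, whereas that of Foxa2 to Hhex was 1.13 in plus_Dox against 1.096 in minus_Dox.

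**Figure D3:**
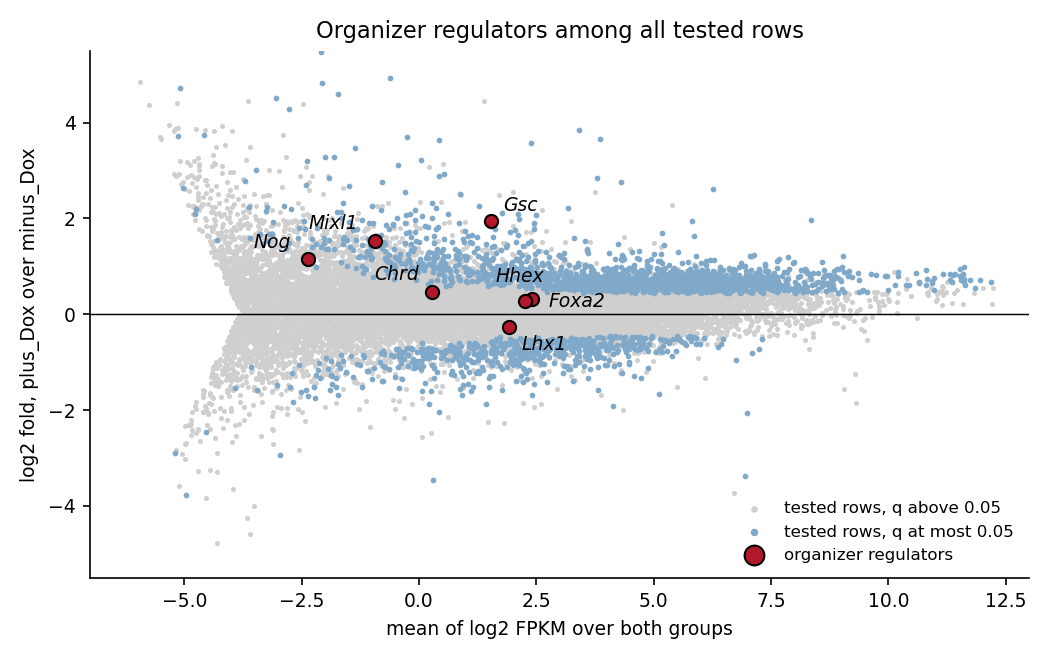
Log2 fold of plus_Dox over minus_Dox against the mean log2 FPKM of both groups for the tested rows with a finite fold, with called rows in blue, other rows in grey and the 7 genes as large circles (11 of 17830 rows lie outside the axes). Gsc lies above the bulk of rows of its level, Mixl1 and Nog lie further left at low level, and Chrd, Foxa2, Hhex and Lhx1 lie within the grey bulk.

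Chrd and Nog encode chordin and noggin, secreted proteins that bind BMP ligands outside the cell. Nog rose to 0.290 FPKM in plus_Dox, against 0.130 FPKM in minus_Dox, in the authors' deposited table (2.23-fold, 95% interval 1.26 to 3.95; log2 fold 1.16, SE 0.42, q = 0.0489). This q-value lies just inside the threshold, the level is the lowest among the 7 tested genes in both groups, and 1.48% of the 3044 tested rows of similar level were called as higher. Chrd did not pass, with 1.43 FPKM in plus_Dox against 1.04 FPKM in minus_Dox in the authors' deposited table (SE 0.29 on a log2 fold of 0.47, q = 0.35; fold 0.934 to 2.04). Chrd exceeded Nog 4.93-fold in FPKM in plus_Dox and 7.97-fold in minus_Dox. The Chrd row has the same interval as that of Thpo (chromosome 16, 20725230 to 20742457, mm9), and Thpo did not pass in the authors' deposited table (q = 0.99). The fold of Gsc exceeded that of Chrd by 1.47 in log2 units (0.74 to 2.20) and that of Nog by 0.78 (-0.17 to 1.73), an interval that includes 0.

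Shh, the hedgehog ligand gene of the notochord and prechordal plate, was listed at 0 FPKM in plus_Dox and 0.0039 FPKM in minus_Dox in the authors' deposited table, and has no test. Its row spans 477181 bases (chromosome 5, 28783354 to 29260535, mm9) against 10262 bases for the RefSeq gene, and shares that interval with 3 other rows. One of these, Gm10290, rose, with 0.916 FPKM in plus_Dox against 0.431 FPKM in minus_Dox in the authors' deposited table (log2 fold 1.09, q = 0.018). Noto, a homeobox gene of the node and notochord, stood at 0.0041 FPKM in plus_Dox and 0.0050 FPKM in minus_Dox in the authors' deposited table and was not tested. Foxj1, the factor gene for motile cilia as found on the node, had 1.190 FPKM in plus_Dox and 1.195 FPKM in minus_Dox in the authors' deposited table (q = 1.00). The name organizer here refers to the known roles of the genes, not to a tissue seen in the cultures.

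The scaling of the table and the composition of transcripts bear on these calls. Over tested rows that reach 1 FPKM in a group the median log2 fold was 0.20, and after its subtraction Gsc (1.74, q = 1.0e-10) and Mixl1 (1.33, q = 0.00040) still passed while Nog (0.96, q = 0.15) did not. After removal of a trend on GC content and length, Mixl1 (log2 fold 1.36, q = 0.00076) and Gsc (log2 fold 1.20, 2.30-fold, q = 8.2e-05) passed again. Mixl1 then had the larger fold, a difference that was not tested. Nog (0.61, q = 0.89) did not pass, and Chrd (-0.02) and Foxa2 (-0.19) turned to the lower side. The split of calls over all rows moved with the scaling: 3.47% were higher and 6.10% lower after the median shift, and 1.30% higher and 0.882% lower (2.18% of 16658 rows) after trend removal. The median log2 fold of the 7 genes was then 0.0034. Under other rules, 4.97% of rows were higher at a q threshold of 0.01, 1.90% with a minimum of 2-fold, 13.9% with a minimum of 1 FPKM and 17.5% with a minimum of 5 FPKM. Gsc has a GC content of 66.6% in its longest transcript, the highest of the 8 genes, and that of Mixl1 is 48.5%, the lowest, against a median of 50.3% over tested rows.

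Genes that act around these regulators in the organizer and anterior mesendoderm were called at 54.2%, against 12.2% of all rows. Of 24 tested members of that list, which holds none of the 8 genes, 12 rose and 1 fell (median log2 fold 0.56). That list and the lists below were chosen with earlier results of these data known, so their shares called are descriptions only. The streak ligand gene Fgf8 (51.7 FPKM in plus_Dox, 4.06 FPKM in minus_Dox), the mesoderm factor gene T (4.76 and 0.381 FPKM) and Tdgf1, the Nodal co-receptor gene (190.5 and 31.3 FPKM), led in the authors' deposited table, with 12.7-fold, 12.48-fold and 6.09-fold rises. Lefty2, a Nodal inhibitor gene, had 11.49 FPKM in plus_Dox against 2.74 FPKM in minus_Dox in the authors' deposited table. Cer1 was the fall, with 5.26 FPKM in plus_Dox and 8.02 FPKM in minus_Dox in the authors' deposited table (q = 0.031). It encodes a secreted antagonist made in anterior endoderm with Hhex and Lhx1, and was named after its value was seen. After trend removal 10 of the 12 rises and the fall passed again.

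Nodal signalling is the input best known for Gsc and Mixl1. Of 18 tested members of its list 6 rose and 1 fell (median log2 fold 0.30), so that 38.9% were called against 12.2% of all rows, and 5 of its members also stand in the organizer list. Nodal had 37.0 FPKM in plus_Dox against 5.14 FPKM in minus_Dox in the authors' deposited table (7.21-fold), and the inhibitor gene Lefty1 had 31.4 against 11.4 FPKM (2.75-fold). The co-repressor gene Drap1 had 187.6 FPKM in plus_Dox and 109.0 FPKM in minus_Dox in the authors' deposited table (log2 fold 0.78), which was 0.02 after trend removal. The 4 rises that passed again after trend removal were those of Nodal, Tdgf1, Lefty1 and Lefty2.

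Mixl1 lies near both Lefty genes on chromosome 1, a feature looked for after the values were seen. In mm9 its row runs from 182623173 to 182627165, and those of Lefty2 and Lefty1 begin 196 kb and 238 kb further along. Of 11 tested rows within 250 kb of Mixl1, 4 rose and 0 fell, beside 8.98% called as higher and 3.22% as lower over all tested rows. All 4 lie 196 to 245 kb away, among them Lefty2 (log2 fold 2.07), Tmem63a (1.49) and Lefty1 (1.46), each called in the authors' deposited table. The rows nearer to Mixl1 did not pass, among them Lin9, 2.36 kb away with 7.17 FPKM in plus_Dox and 7.56 FPKM in minus_Dox in the authors' deposited table, and Acbd3, 29.0 kb away (log2 fold -0.14). Near Gsc 0 of 2 tested rows were called, and near Nog 1 of 3 was called as higher. This was Gm11497, at a low level (0.196 FPKM in plus_Dox and 0.061 FPKM in minus_Dox in the authors' deposited table).

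**Figure D4:**
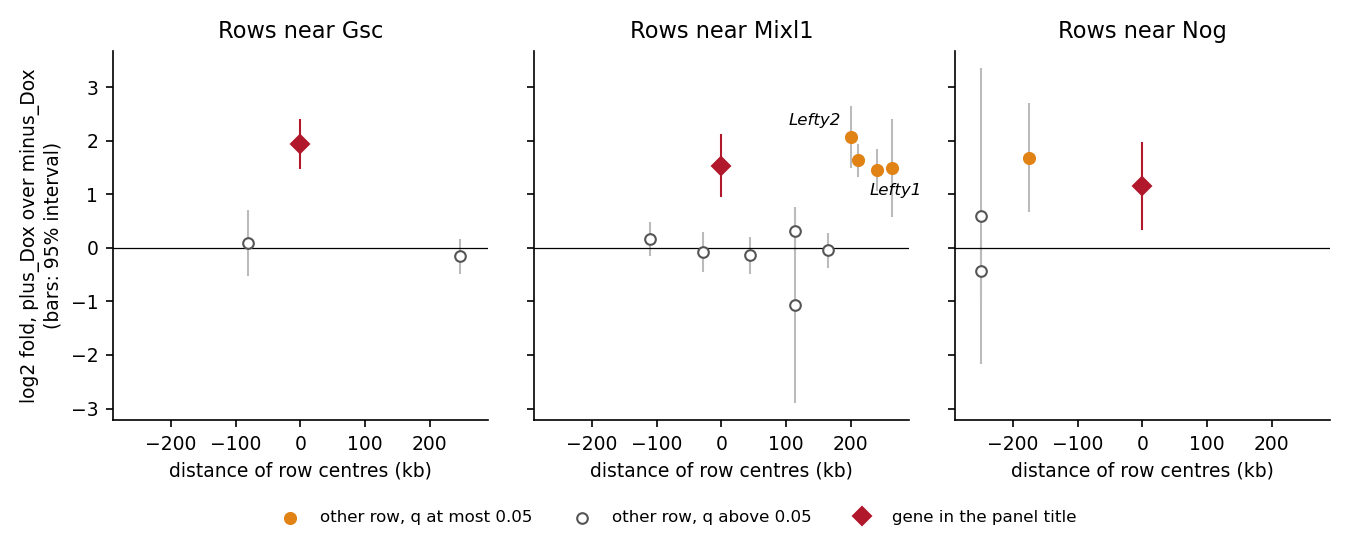
Log2 fold of plus_Dox over minus_Dox for tested rows within 250 kb of Gsc, Mixl1 and Nog against the distance between row centres in kb, with bars for the 95% interval, filled circles for called rows, open circles for rows not called and a diamond for the gene itself. Rows with an SE of at least 2 are not drawn. Near Mixl1 the called rows lie 201 to 264 kb away between centres, beyond open circles mostly close to 0.

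The pathways on which the secreted members act were mixed. In the BMP list, the target of Chrd and Nog, 5 of 30 tested genes rose and 3 fell (median log2 fold 0.07), 16.7% and 10.0% of them, against 8.98% and 3.22% of all rows. Fst, follistatin, an activin antagonist that also binds BMPs, had 10.1 FPKM in plus_Dox against 2.93 FPKM in minus_Dox in the authors' deposited table (3.43-fold). The BMP response gene Id3 had 105.2 against 60.7 FPKM, and the inhibitory Smad gene Smad7 had 9.88 against 5.40 FPKM, both called in the authors' deposited table. The receptor genes Bmpr2 (0.876 FPKM in plus_Dox, 1.63 FPKM in minus_Dox) and Bmpr1b (0.550 and 1.02 FPKM) fell in the authors' deposited table. Of the 5 rises 2 passed again after trend removal, as did 0 of the 3 falls, and Bambi, a BMP pseudoreceptor gene, passed as higher (0.63, q = 0.038).

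In the hedgehog list, 0 of 17 tested genes rose and 1 fell (median log2 fold 0.08), a share of 5.88% called against 12.2% of all rows. The fall was Ptch1, the receptor and target gene of the pathway, with 6.79 FPKM in plus_Dox against 10.3 FPKM in minus_Dox in the authors' deposited table (SE 0.21 on a log2 fold of -0.60, q = 0.035). It did not pass after trend removal (-0.53, q = 0.23). Among the LIM-complex partners of Lhx1, 1 of 14 tested genes rose, the adaptor gene Ssbp4, with 17.7 FPKM in plus_Dox against 8.77 FPKM in minus_Dox in the authors' deposited table (log2 fold 1.01, q = 4.36e-06). It did not pass after trend removal (0.36, q = 0.58), whereas the related Ssbp1 then did (0.62, q = 0.027). The share called, 7.14%, was below the 12.2% of all rows.

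**Figure D5:**
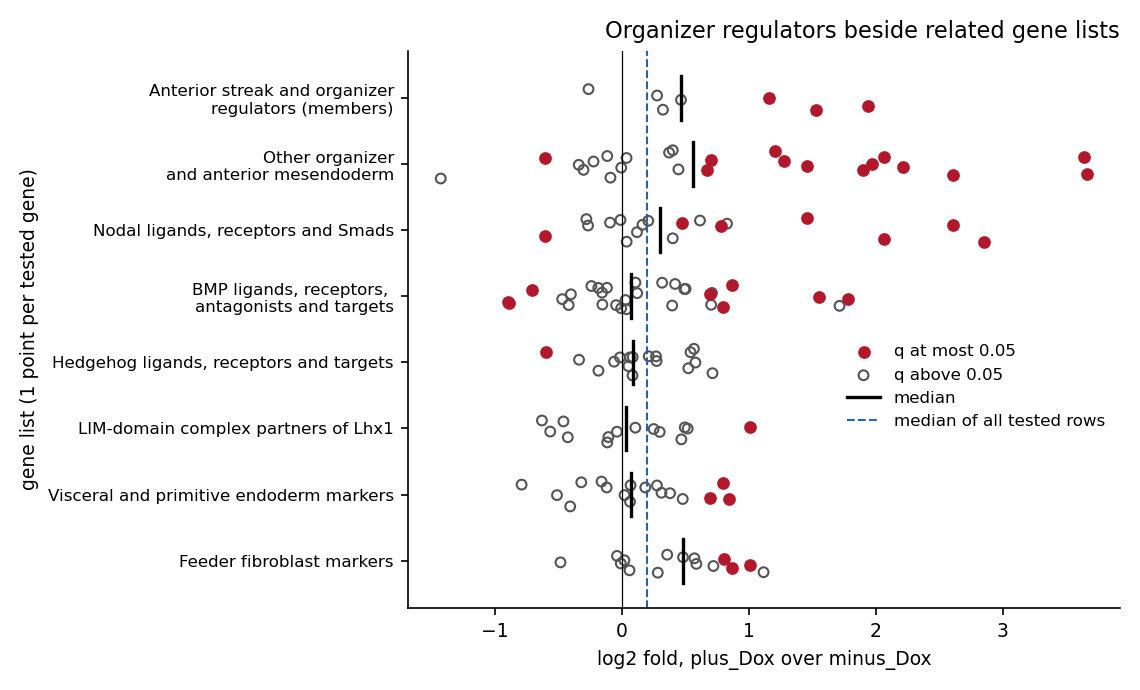
Log2 fold of plus_Dox over minus_Dox for each tested gene of the 8 named genes (top) and of the 7 related lists, with filled points for called genes, open points for others, a black bar for the median and a dashed line for the median of all tested rows (0.20). The highest points are Fgf8 (3.67) in the organizer list and Nodal (2.85) in the Nodal list, while most hedgehog, LIM-partner and visceral endoderm genes lie near 0.

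Visceral endoderm also expresses Lhx1, Hhex and Foxa2, and in bulk RNA a change in the number of such cells and in RNA per cell cannot be told apart. Its defining markers were present in both groups, with 0 of 9 at 0. In the authors' deposited table Ttr had 48.6 FPKM in plus_Dox and 37.4 FPKM in minus_Dox, Afp had 9.80 and 10.7 FPKM, and Hnf4a had 5.54 and 5.30 FPKM, and these 3 did not pass. Amn, also a defining marker, rose, with 43.8 FPKM in plus_Dox and 27.2 FPKM in minus_Dox in the authors' deposited table (q = 0.00084). The remaining defining markers, Apoa1, Cubn, Gata4, Gata6 and Sox7, did not pass. Of 17 tested genes of the list 3 rose (Cited1, Amn and Apoe), which is 17.6% against 8.98% of all rows, and 0 fell (median log2 fold 0.07). After trend removal 0 of the 3 passed again, and the primitive endoderm factor gene Gata6 passed as lower (-0.72, q = 0.027). Summed over the list the level was 1610 FPKM in plus_Dox and 1097 FPKM in minus_Dox, of which Apoe gave 1057 and 590.0 FPKM in the authors' deposited table. Of 15 tested genes of the feeder fibroblast list 3 rose (Tagln, Acta2 and Twist1), which is 20.0% against 8.98% of all rows, and 0 fell (median log2 fold 0.48). These 3 are not among its defining markers, Col1a1, Col1a2, Col3a1, Postn, Thy1, Twist2 and Prrx1, which did not pass. Tagln and Acta2 passed again after trend removal. The summed level was 239 FPKM in plus_Dox and 129 FPKM in minus_Dox, of which Tagln gave 175.5 and 87.4 FPKM and Acta2 gave 34.1 and 18.8 FPKM in the authors' deposited table. The collagen gene Col1a1 had 1.32 FPKM in plus_Dox and 0.888 FPKM in minus_Dox there, and Postn had 0.787 and 0.755 FPKM, and neither passed. Thy1 (16.6 and 11.9 FPKM, q = 0.055) and Twist2 (0.250 and 0.115 FPKM, q = 0.16) did not pass in the authors' deposited table either. All of these defining markers but Prrx1 had the higher value in plus_Dox. The part of either cell type in the values of the 8 genes was not tested.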

How the data were processed

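Polyadenylated RNA of 3 plus_Dox and 3 minus_Dox libraries was prepared by the TruSeq RNA protocol, per the labels' protocols. Cufflinks 2.0.2 with Cuffdiff, TopHat2 2.0.8 with Bowtie, and Picard stand in the submitters' processing notes beside the build mm9, and no annotation is named there. The authors deposited a single table in Cuffdiff's layout. Per the file headers it holds FPKM values per group, a log2 fold, a test statistic (a score whose sign is opposite to the fold) and a p-value and q-value. It has 0 columns of single libraries, so the authors' own test was the main test, as the design had foreseen, with q at most 0.05 over 18114 tested rows. Of these, 284 have 0 FPKM in a group and no finite fold.

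The SE is the log2 fold over the statistic. The median-shifted and trend-corrected folds keep this SE and were adjusted again by Benjamini-Hochberg. The trend used cubic splines (6 knots each) on GC content and log2 length of the longest basic GENCODE vM21 transcript (GRCm38, for these properties only; 92.0% of tested rows matched), fitted by weighted least squares in scikit-learn 1.9.0. It was tried on simulated data in which true changes were placed without regard to GC content or length. That trial cannot show how trend removal treats real changes that go with either property. Promoter windows are RefSeq's. Alternatives were pseudocounts of 0.1 and 1, levels of at least 1 or 5 FPKM, changes of at least 2-fold, and q thresholds of 0.01 and 0.1.

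The 8 genes and the gene lists were chosen with earlier results of these data known. From each list, up to 5 called genes that reach 1 FPKM are named, by size of change, along with defining cell type markers and, per called member, the 2 tested rows of nearest levels. Some genes that this rule names are not reported here.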

Additional observations from a re-analysis of the deposited data

How the results depend on the processing

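The calls of Gsc and Mixl1 kept their direction and passed under each alternative that gave a value with a test, except that Mixl1 (under 1 FPKM) has no value under the minima of 1 and 5 FPKM. Nog did not pass at a q threshold of 0.01 (log2 fold 1.16), after the median shift was subtracted (0.96) or after trend removal (0.61), and has no value under either FPKM minimum. Trend removal reversed Chrd (-0.016) and Foxa2 (-0.19), neither of which was called. A pseudocount of 1 moved the log2 folds of Gsc to 1.43, Mixl1 to 0.53 and Nog to 0.19. The number of members called as higher was 3, against 2 at a q threshold of 0.01, after the median shift and after trend removal, and 1 with a minimum of 1 or 5 FPKM. Over all rows, 1626 were higher and 584 lower; these counts were 901 and 307 at a q threshold of 0.01, 345 and 146 with a minimum of 2-fold, 618 and 1087 after the median shift, and 216 and 147 after trend removal. The cause of these changes was not tested. No paired analysis was possible because the table holds group values only, and for the same reason leaving out replicates was not run. The unknown depth limits what can be said of Nog, Mixl1 and Shh.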

Other observations

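In a look made after the values were seen, 17 of 18 tested rows within 250 kb of Chrd had a higher value in plus_Dox. Their median log2 fold was 0.44, beside 0.47 for Chrd itself and 0.20 over all tested rows with a finite fold. Of the 18 rows 1 was called, the glycosylation gene Alg3, as higher, beside 8.98% of all tested rows. Some of the 18 share an interval, such as Polr2h, Clcn2 and Fam131a, so they are not 18 separate places. Around Hhex, 2 of 7 tested rows were higher and 0 were called (median log2 fold -0.12).

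Rows whose group values were nearest to those of each called gene, by distance in log2 FPKM of both groups over 17482 tested single-gene rows, show how the authors' test treated like values. Nearest to Gsc were Pde2a, a phosphodiesterase gene with 5.52 FPKM in plus_Dox and 1.54 FPKM in minus_Dox in the authors' deposited table (q listed as 0), and the pseudogene Rpl18-ps2 (5.64 and 1.65 FPKM). Nearest to Mixl1 were Gm12094 (0.919 and 0.303 FPKM, log2 SE 5.67) and A830052D11Rik (0.843 and 0.313 FPKM, SE 1.46) in the authors' deposited table, which did not pass. Nearest to Nog were Gm7312 and Gm221, with SEs of 0.85 and 0.84 against 0.42 for Nog, and neither passed in the authors' deposited table.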
